A study of Mus musculus with 18 samples.

Results

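The peaks described here are the regions that PU.1 occupied in MEL cells both before and after 5 days of differentiation. A day 0 peak was taken as shared when it overlapped a day 5 peak by at least 1 bp, with each day's list being the one that the authors merged over both ChIP replicates by the irreproducible discovery rate (IDR). Of 14064 day 0 peaks, 3266 were shared (23.2%, 95% Wilson interval 22.5 to 23.9, counting error only) and 10798 were found on day 0 alone (day 0-only peaks). Seen from day 5, 3280 of 3530 peaks were shared and 250 had no day 0 partner. MEL is a line of mouse erythroleukemia cells in which dimethyl sulfoxide (DMSO) starts hemoglobin synthesis. The groups were cells after 5 days in 2% DMSO (day 5) and untreated cells (day 0) of the same line. Each assay had 2 biological replicates per day, per the labels, which do not say how the cultures were kept apart. PU.1 ChIP-seq, DNase-seq, RNA-seq and ChIA-PET with the 4H8 antibody against RNA polymerase II were used, and 1 input control per day was not analysed here.

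PU.1 is a transcription factor of the ETS family, encoded by Sfpi1 (also called Spi1), that binds purine-rich DNA with a GGAA core and drives macrophage and B cell development. In erythroleukemia it is held at a high level in the proliferating cells, where it opposes GATA1 and blocks red cell maturation, and its level goes down when the cells are induced to differentiate. Bound factors and nucleosome-free DNA are read here in other ways as well: DNase cuts open chromatin into hypersensitive sites, a protein sitting inside such a site leaves a short protected stretch called a footprint, and ChIA-PET links distant regions that are brought together with polymerase.

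Sfpi1 RNA stood at 2.37 and 3.55 FPKM in the day 5 libraries, against 55.4 and 101 FPKM in the day 0 libraries. Both day 5 values were far below both day 0 values, and the log2 difference was −4.28 ± 0.36 (SE, n = 2 each; limma adjusted p = 0.00658). That p was 0.0624 to 0.167 when any 1 of the 4 libraries was left out and 0.0661 without the filter on low genes. In this comparison limma called 1989 of 10736 genes (18.5%), 1150 higher (10.7%) and 839 lower (7.81%) on day 5. After quantile normalization, which lowered the median change of all genes to 0.01 from 0.15 on the log2 scale, 814 were higher and 895 lower. RNA came from bulk cultures, so fewer cells expressing a gene and less RNA per cell cannot be told apart. The day 5 cells had the erythroid markers of their label: 8 of 10 rose, and their summed level was 30774 to 32534 FPKM on day 5, against 1355 to 2058 FPKM on day 0. Without the filter on low genes, only Tal1 and Hba-a1 of these kept their calls. Slc4a1, counted among the 8, passed that filter only through its day 5 values, so its rise was partly decided by the filter. Of 5 macrophage markers, Csf1r, Emr1 and Cd14 were listed at 0 in all 4 libraries, and the 5 together summed to 0.628 to 2.09 FPKM on day 5 and 0.766 to 1.22 FPKM on day 0. Lymphoid and fibroblast markers were below 1 FPKM throughout. Of 3 mast cell markers Hdc fell, with 0.382 and 0.376 FPKM on day 5, against 10.2 and 6.13 FPKM on day 0 (limma adjusted p = 0.0148). Hdc passed the filter on low genes only through its day 0 values, so its fall was partly decided by that filter. Without the filter its limma adjusted p was 0.0751.

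The shared peaks were the strong end of the day 0 list. Their day 0 score, which lies close to the mean −log10 p of both replicates, had a median of 83.0, against 26.5 at day 0-only peaks. The median IDR was 5.9e-07 at shared peaks and 0.00243 at day 0-only peaks. Shared peaks were also wider on day 0, with a median of 393 bp against 314 bp. The day 5 peaks that they overlapped were narrower, at a median of 225 bp, and had a median score of 27.7. These values chose the members or follow from the same peak calls, so they are given as a description with no test: members were chosen by having a merged PU.1 peak call on both days. Of the shared peaks, 3252 overlapped 1 day 5 peak, 13 overlapped 2 and 1 overlapped 3.

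PU.1 fold enrichment, the ratio to background that the authors' peak caller gave each peak, was taken in each library from the strongest peak overlapping the merged one. At shared peaks its median was 9.79 and 14.9 in the day 5 libraries, against 25.0 and 24.5 on day 0. The middle 50% of shared peaks ran from 7.53 to 13.7 and from 10.8 to 21.1 on day 5, and from 16.8 to 35.9 and from 16.7 to 35.3 on day 0. The day 5 libraries were thus lower than the day 0 libraries at most shared peaks, and the 2 day 5 libraries differed from each other while the 2 day 0 libraries were close. Day 0-only peaks had medians of 5.34 and 6.44 in the day 5 libraries, among the 30.6% and 58.1% of them with a peak there, and of 11.3 in each day 0 library. Part of the 10798 day 0-only peaks therefore carried a peak call in a single day 5 library or in both: 2972 had one in all 4 libraries.

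**Figure D1:**
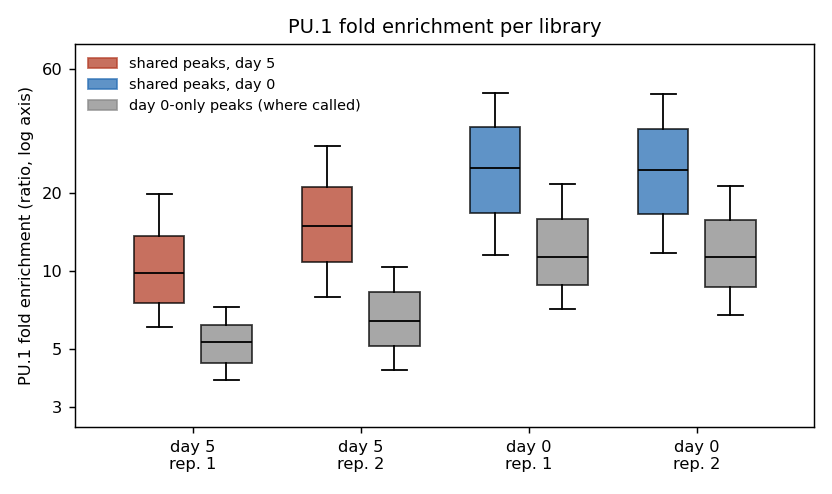
PU.1 fold enrichment (ratio, log axis) in each ChIP library, for shared peaks (coloured) and for day 0-only peaks that have a peak in that library (grey). Lines are medians, boxes the 25th to 75th percentiles and whiskers the 10th to 90th; shared peaks had medians of 9.79 and 14.9 on day 5, against 25.0 and 24.5 on day 0.

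The difference in fold enrichment between days was uneven among shared peaks. The day 5 libraries also had fewer peaks in all, 10714 and 18614, against 34590 and 46077 on day 0. Median fold enrichment over all peaks of a library was 5.54 and 5.67 on day 5, against 7.15 and 5.89 on day 0. A library-wide difference between days and a loss at single sites cannot be told apart here. The log2 ratio of mean fold enrichment, day 5 over day 0, had a median of −0.91, with 80 of every 100 peaks between −1.76 and −0.06 and extremes of −3.36 and 1.56. At 2520 of 3266 shared peaks (77.2%) both day 5 libraries were below both day 0 libraries. The same pattern was found at 82.9% of the 6238 day 0 peaks with a peak in all 4 libraries. At 78 shared peaks (2.39%, against 1.38% of the 6238) both day 5 libraries were above both day 0 libraries, and at 668 the days overlapped. Counted by means alone, 283 shared peaks were higher on day 5. Since peaks that kept a call on day 5 are by selection those with more signal there, nothing is read from these shares. The median ratio was −0.68 without day 5 replicate 1 and −1.22 without day 5 replicate 2, so its size depends on which day 5 library is used.

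The order of shared peaks by strength was kept better between replicates than between days. Across the 3266 peaks, Spearman's rho of fold enrichment was 0.84 between the day 5 libraries and 0.92 between the day 0 libraries. Between a day 5 and a day 0 library it was 0.53 to 0.54. Peaks of one library share its depth and background, so these coefficients are descriptions. The position of the summit, by contrast, hardly differed between days. Its median distance between libraries was 9 bp within day 5, 6 bp within day 0 and 7 to 9 bp across days. Across days 82.9% to 86.8% of shared peaks had summits within 25 bp of each other, compared with 84.8% within day 5 and 89.2% within day 0.

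The shared peaks with the highest mean rank of fold enrichment over all 4 ChIP libraries had strong enrichment on both days by that choice. The first, at chr11:55344220-55344682 (mm9, as are all positions here), had a fold enrichment of 48.6 and 73.5 on day 5 and 82.5 in each library on day 0. A second, at chr7:20456450-20457036, had 50.7 and 70.4 on day 5, against 76.8 and 83.2 on day 0. Both lay in DNase sites of all 4 libraries, with footprints on both days. Another, on chromosome 18, had 36.9 and 57.1 on day 5, against 81.3 and 75.1 on day 0. Its DNase score was only 7.04 and 3.37 on day 5, against 82.8 and 34.9 on day 0, and its single day 0 footprint was not listed on day 5. The last, at chr4:115519947-115520488, had 46.2 and 52.3 on day 5, against 78.7 and 73.1 on day 0. In each of these 4 peaks every day 5 value was below every day 0 value.

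At a few shared peaks PU.1 fold enrichment was higher after differentiation. At chr3:120945803-120946241 fold enrichment was 39.5 and 67.4 on day 5, against 18.7 and 17.6 on day 0, a ratio of means of 2.95. At chr17:29497658-29498087 it was 49.7 and 68.4 on day 5, against 23.3 and 24.1 on day 0, a ratio of 2.49. At chr15:11964057-11964420 it was 21.1 and 37.8 on day 5, against 11.1 and 13.0 on day 0, a ratio of 2.44. These are the 3 highest ratios among the members, and in each the days did not overlap. The merged peak score differed much less between days at these peaks. It was 169 on day 5 against 152 on day 0 (chromosome 3) and 190 against 178 (chromosome 17). At the chromosome 15 peak it was lower on day 5, at 84.0 against 89.3. DNase score was lower on day 5 at all 3 peaks. At the chromosome 3 peak it was 24.1 and 21.8 on day 5, against 278 and 162 on day 0, with 1 footprint on day 5 and 5 on day 0. At the chromosome 17 peak it was 19.7 and 25.7 on day 5, against 120 and 67.7 on day 0. At the chromosome 15 peak it was 78.0 and 108 on day 5, against 443 and 354 on day 0, with 3 footprints on day 5 and 5 on day 0. Over the 78 shared peaks with both day 5 libraries above both day 0 libraries, the median DNase change of the 60 found in all 4 DNase libraries was −1.22 on the log2 scale.

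The opposite extreme held the peaks whose fold enrichment fell by the largest factor. At chr1:194886297-194886797, which had the highest score of all shared peaks on day 0 (491), fold enrichment was 12.2 and 9.63 on day 5, against 105 and 111 on day 0. At chr4:131803380-131803838 it was 4.98 and 5.90 on day 5, against 56.1 and 56.0 on day 0. At chr16:55811897-55812305 it was 4.98 and 5.36 on day 5, against 54.5 and 49.6 on day 0. The ratio of means was close to 0.1 in all 3 (0.0971 to 0.101). On day 5 the chromosome 1 peak still had a score of 38.8, above the median of 27.7 for day 5 peaks that were shared. The chromosome 4 and 16 peaks had day 5 scores of 7.68 and 7.12, under the 10th percentile of 13.4. The chromosome 16 peak lay in a DNase site of neither day 5 library, but had scores of 69.5 and 60.2 on day 0. The chromosome 1 peak was in a site of day 5 replicate 1 alone, with a score of 3.19, against 103 and 56.0 on day 0, and its 3 day 0 footprints had no day 5 counterpart.

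**Figure D2:**
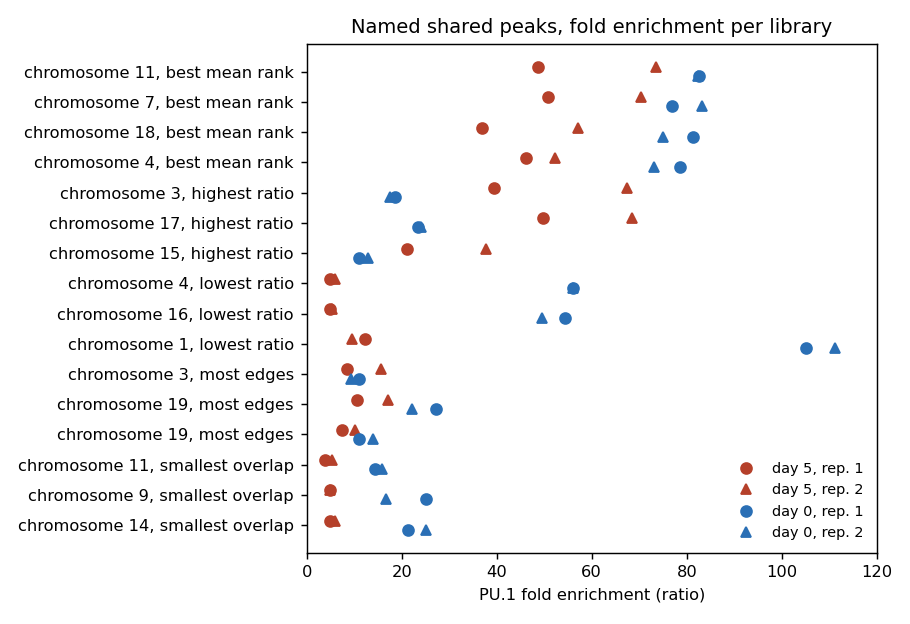
PU.1 fold enrichment (ratio) in the 2 day 5 libraries (red) and the 2 day 0 libraries (blue) at the shared peaks named by rank, by ratio, by number of edges and by size of overlap. Red points lie to the right of blue points in the 3 peaks with the highest ratio, and far to the left in the 3 with the lowest.

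At the limit of the membership rule, the 3 smallest overlaps were 100, 101 and 102 bp. The members concerned had fold enrichments of 3.87 to 5.90 on day 5 and 14.3 to 25.1 on day 0. The closest day 0 peaks left outside were 64, 115 and 125 bp from a day 5 peak. They had fold enrichments of 4.69 to 8.23 in day 5 replicate 2 and no peak in day 5 replicate 1, and 8.64 to 14.7 on day 0. No member was therefore decided by a few bases.

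Shared peaks were spread over the genome. Leaving out chromosome Y, with 7 shared of 10 day 0 peaks, the share of day 0 peaks that were shared ran from 16.2% on chromosome 18 (12.7 to 20.3, 95% Wilson interval) to 25.8% on chromosome 7 (22.9 to 28.9). The median distance to the nearest other day 0 peak was 19058 bp for shared peaks and 22371 bp for day 0-only peaks. Another shared peak lay within 10 kb of 404 members (12.4%). There were 14 runs of 3 or more shared peaks spaced by no more than 10 kb, 10 of 3 and 4 of 4 peaks. The most compact run of 4, at chr9:58093825-58097722, spanned 3898 bp and had a mean fold enrichment of 14.5 on day 5 and 30.1 on day 0. All 4 of its peaks lay in DNase sites on both days. At the run of 3 on chr19:47207563-47212980 the mean was higher on day 5, at 28.9, against 23.4 on day 0.

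Most shared peaks lay in open chromatin on both days. In the authors' list of DNase sites found in both replicates, 80.1% of shared peaks were in a site on day 5 (78.7 to 81.4, 95% Wilson interval) and 90.8% on day 0 (89.7 to 91.7). Of day 0-only peaks 55.0% were in a site on day 5 and 79.1% on day 0. A total of 2604 shared peaks were in a site on both days, 360 on day 0 alone, 12 on day 5 alone and 290 on neither. The 290 peaks outside listed sites were called PU.1 peaks all the same, with median fold enrichments of 8.54 and 12.0 on day 5, against 19.7 and 17.7 on day 0. The 360 that were open on day 0 alone had a median log2 PU.1 ratio of −1.27, against −0.86 for the 2604 open on both days. They were also weak sites on day 0, with median scores of 14.0 and 16.4 against 168 and 137.

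By single DNase library, 85.2% and 82.9% of shared peaks were in a site on day 5 and 91.4% and 92.8% on day 0. Among day 0-only peaks it was 65.8% and 62.5% on day 5, against 81.2% and 85.4% on day 0. The shared peaks were ahead in all 4 libraries, by 14.4 percentage points on average (exact two-sided sign-flip permutation test, p = 0.125, the smallest that 4 libraries allow). The lead was 19.4 and 20.4 points on day 5 and 10.2 and 7.48 points on day 0. The days did not overlap, and the lead was 11.0 points larger on day 5 (exact permutation test, p = 0.333, the smallest that 2 libraries against 2 allow). The day 5 site lists were far longer, at 617606 and 518066 sites, than the day 0 lists, at 190924 and 252611 sites, and the part of list length in the difference between days was not tested.

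Because shared peaks were stronger on day 0, the day 0-only peaks were also weighted to their distribution over 10 classes of day 0 score. With that weighting the day 0-only share came to 69.6% and 65.6% on day 5 and to 91.3% and 93.7% on day 0. On day 0, shared and weighted day 0-only peaks were then within 1 point of each other, with differences of 0.11 and −0.90. The match was coarse in the top class, where 1239 of 1407 day 0 peaks were shared, so few day 0-only peaks carried its weight. Scores reached 491 at shared peaks and 282 at day 0-only peaks, and differences of strength inside a class were not removed. On day 5 the shared peaks remained ahead by 15.5 and 17.4 points. The lead averaged over the 4 libraries became 8.02 points (exact sign-flip permutation test, p = 0.375), while its difference between days became 16.8 points (exact permutation test, p = 0.333). The day 0 shares are close to their ceiling and do not show that the regions were equally open on day 0: with the same weighting, 71.6% of shared peaks and 52.2% of day 0-only peaks had a footprint on day 0.

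**Figure D3:**
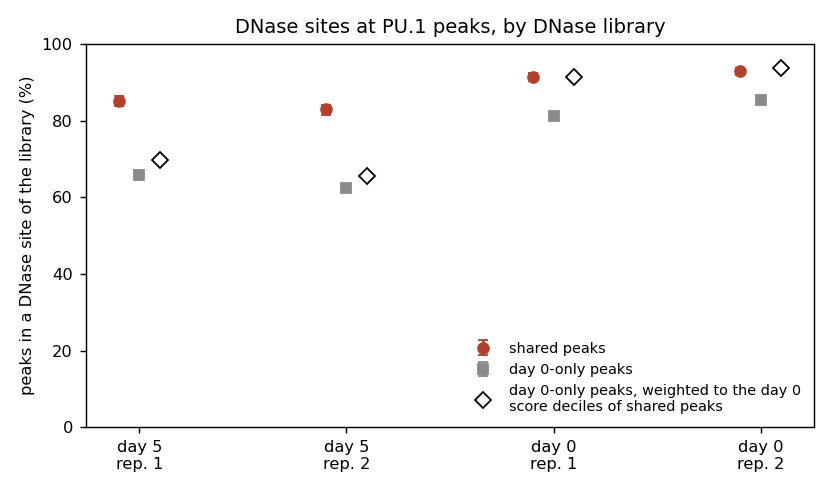
Percent of peaks that lie in a DNase site of each library, for shared peaks, day 0-only peaks and day 0-only peaks weighted to the day 0 score of shared peaks; bars are 95% Wilson intervals. In the day 5 libraries shared peaks (85.2% and 82.9%) lie above both other sets, and in the day 0 libraries the weighted day 0-only peaks reach them.

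DNase scores were lower on day 5 at nearly all shared peaks. The median score of shared peaks in a site of the library was 31.1 and 37.9 on day 5, against 141 and 117 on day 0. The difference between days was −94.3 score units (exact permutation test, p = 0.333, the smallest that 2 against 2 allow). No label or header says how the authors scaled the score, so the change at other sites is set beside it. At the 2619 shared peaks found in sites of all 4 libraries the median log2 change, day 5 over day 0, was −1.72, with the middle 50% between −2.57 and −1.09. Both day 5 libraries were below both day 0 libraries at 98.0% of them, and at 96.2% of the day 0-only peaks found in all 4. Of all 89000 day 0 sites found in all 4 libraries it was 71.6%. Only 14 of the 2619 had a higher mean on day 5. The median change was −1.78 at day 0-only peaks and −0.96 at DNase sites with no day 0 PU.1 peak.

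Sites were next compared at the same day 0 DNase score. Sites holding a shared peak changed by a median of −1.59 on the log2 scale (2603 sites). Sites with day 0-only peaks changed by −1.52 and sites with no PU.1 peak by −1.05 after weighting to the day 0 scores of the first. On day 5 the median score was 38.1 and 45.9 at sites with a shared peak, against a weighted 58.0 and 78.0 at sites with no peak. On day 0 the values were near each other, at 162 and 134 against 158 and 145. The difference between these kinds of site, day 5 minus day 0, was −0.65 (exact permutation test over 4 libraries, p = 0.333). Against sites with day 0-only peaks it was −0.07 (p = 0.333 by the same exact test). In both day 5 libraries DNase signal was thus lower at PU.1 sites than at other sites of like day 0 score. This held whether or not the merged day 5 list had a peak there. Absence from that list is not absence of a call. Of day 0-only peaks, 30.6% had a peak in day 5 replicate 1 and 58.1% in replicate 2. Within each library the median score of shared peaks was 2.02 to 2.22 times that of day 0-only peaks, higher in 4 of 4 libraries (exact sign-flip permutation test on the log2 ratio, p = 0.125), and that ratio was nearly the same on both days.

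Remaining in the list of open sites was a different matter from score. Of 2907 day 0 sites with a shared peak, 88.9% were also in the day 5 list. Of 8019 sites holding day 0-only peaks alone 72.1% were, and of 136713 sites without any PU.1 peak 57.9%. At the day 0 DNase scores of sites with a shared peak, by weighting, 86.3% of sites with day 0-only peaks and 88.9% of sites with no peak were in the day 5 list. Sites of like day 0 score were therefore retained about as often with and without a shared peak.

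DNase signal on day 5 was graded with the PU.1 signal that remained. When shared peaks were divided into quintiles by their PU.1 ratio, day 5 over day 0, the lowest quintile (median log2 ratio −1.76) had median day 5 DNase scores of 11.9 and 13.2, and the highest quintile (median −0.06) had 59.1 and 77.6. Median day 0 scores also differed, at 86.6 and 74.9 in the lowest quintile and 198 and 164 in the highest, but less steeply. The median log2 DNase change accordingly went through −2.63, −2.01, −1.69, −1.45 and −1.24 from the lowest to the highest quintile. All quintiles had lower scores on day 5, including the highest. PU.1 fold enrichment in the highest was 15.4 on day 5 and 15.6 on day 0 by medians, near-equal because the quintiles were cut on that ratio. Across the 2619 shared peaks in sites of all 4 libraries, Pearson's r between DNase change and PU.1 change was 0.37 and Spearman's rho was 0.37. Peaks of one library share its depth and scaling, so these are given as descriptions.

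The gradient was present also among peaks of like day 0 PU.1 strength. With quintiles of the ratio taken inside quintiles of day 0 fold enrichment, median day 0 fold enrichment stayed between 24.0 and 25.3. The median day 5 DNase score was 12.8 and 16.0 in the lowest and 50.5 and 67.0 in the highest of these quintiles. On day 0 it was 83.2 and 73.8 in the lowest and 195 and 157 in the highest. Shared peaks that kept more PU.1 were thus already in stronger DNase sites on day 0.

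**Figure D4:**
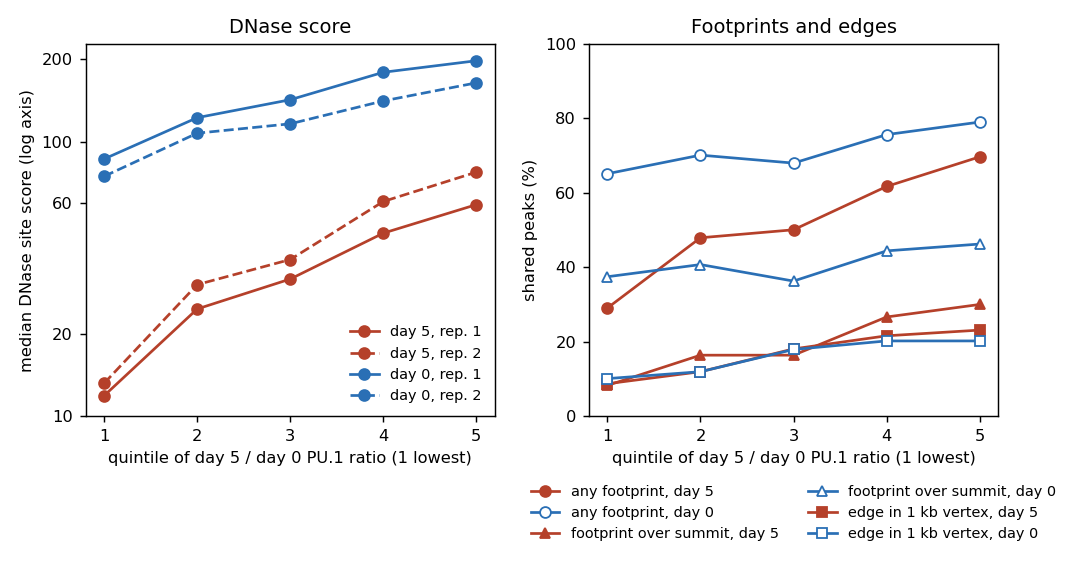
Shared peaks in quintiles of the PU.1 fold enrichment ratio, day 5 over day 0 (1 is the lowest). The left panel gives the median DNase site score (log axis) in each library, which on day 5 is 11.9 and 13.2 in the first quintile and 59.1 and 77.6 in the last; the right panel gives the percent of peaks with any footprint, with a footprint over the day 0 summit and in a 1 kb vertex with an edge, on day 5 (filled) and day 0 (open).

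Footprints were found at 51.7% of shared peaks on day 5 (50.0 to 53.4, 95% Wilson interval) and 71.6% on day 0 (70.0 to 73.1). Day 0-only peaks had them at 24.2% on day 5 and 40.6% on day 0. The authors gave 1 footprint list per day, so there is no replicate check. The lists were about equally long over the whole genome, with 158217 footprints on day 5 and 155765 on day 0. Shared peaks nevertheless held 4823 footprints on day 5 against 6568 on day 0, or 1.48 against 2.01 per peak. A footprint was present on both days at 1661 shared peaks, on day 0 alone at 677 and on day 5 alone at 27. Among shared peaks in a DNase site of the day, 64.3% had a footprint on day 5 and 78.9% on day 0.

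Footprints thinned out more over the centre of PU.1 binding than beside it. A footprint covered the day 0 PU.1 summit at 638 shared peaks on day 5 (19.5%) and at 1340 on day 0 (41.0%). Footprints elsewhere in the peak were found at 1561 (47.8%) on day 5 and at 2038 (62.4%) on day 0. The number of footprints over the summit on day 5 was 0.476 times that of day 0, and the number beside it was 0.800 times. The median distance from the summit to a footprint centre was 82 bp on day 5 and 66.5 bp on day 0. The difference between summit and flank was also seen where the chromatin was open on both days. Among these 2604 peaks, 46.0% of those with a day 0 summit footprint had one on day 5 (592 of 1287, 43.3 to 48.7). For footprints beside the summit it was 74.7% (1480 of 1981, 72.7 to 76.6). At day 0-only peaks open on both days the values were 44.2% over the summit and 63.5% beside it. Peaks can hold several footprints beside the summit but only 1 over it, which raises the second kind of share.

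**Figure D5:**
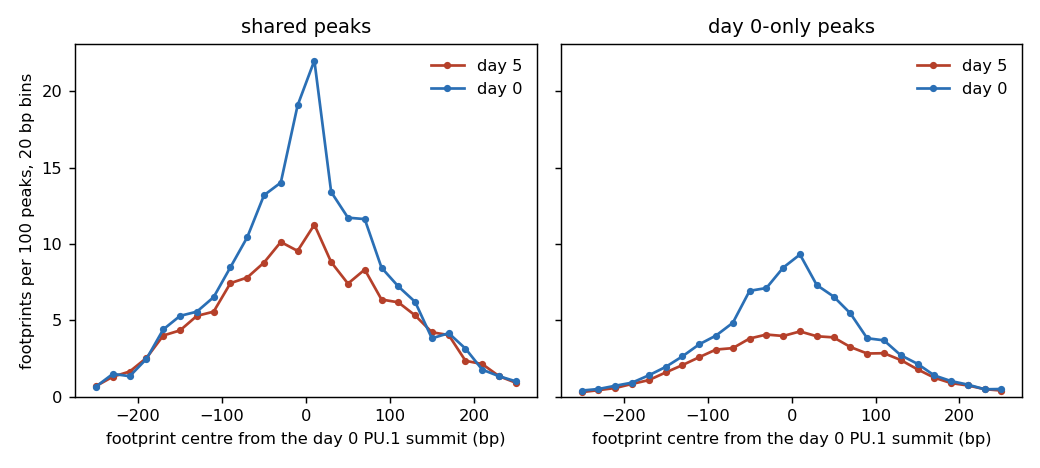
Footprints per 100 peaks in 20 bp bins of distance from the day 0 PU.1 summit to the footprint centre, for shared peaks (left) and day 0-only peaks (right), on day 5 (red) and day 0 (blue). The day 0 profile of shared peaks is highest in the bins next to the summit, where day 5 is lower, and the days come together beyond about 150 bp.

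Footprints also followed the PU.1 signal that remained. Any footprint was found on day 5 in 29.1% of the lowest and 69.7% of the highest quintile of PU.1 ratio, and on day 0 in 65.1% and 79.0% of these quintiles. A footprint over the summit was found on day 5 in 8.26% of the lowest and 30.0% of the highest quintile, and on day 0 in 37.5% and 46.2%. Summit footprints were fewer on day 5 in the highest quintile too, where PU.1 enrichment was nearly equal between days because quintiles were cut on that ratio. DNase scores there were also lower, at medians of 59.1 and 77.6 on day 5, against 198 and 164 on day 0. The part of lower DNase signal in the footprint difference was not tested. At equal day 0 PU.1 score, footprints remained more frequent at shared peaks: over the summit, they were at 19.5% of shared peaks on day 5 and 41.0% on day 0, against 4.41% of weighted day 0-only peaks on day 5 and 20.7% on day 0.

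Contacts measured by ChIA-PET were about as frequent on day 5 as on day 0 at shared peaks. A vertex is one of the regions between which the authors counted contacts, made from DNase sites with polymerase II or cohesin peaks and stretched to 1 kb or more, and an edge is a contact between a pair of vertices. A share of 89.3% of shared peaks lay in a 1 kb vertex, as did 73.8% of day 0-only peaks. The vertex of 16.7% of shared peaks had an edge on day 5 and that of 16.1% had one on day 0, with 95% Wilson intervals of ± 1.28 and ± 1.26 points. Both shares were 10.2% at day 0-only peaks. Edges were given as 1 list per day, with no replicate check. Of 2916 shared peaks in a vertex, 360 had an edge on both days, 185 on day 5 alone and 165 on day 0 alone. The near-equal shares were thus made up in part of different peaks on each day. With 1 list per day, such differences cannot be told apart from variation between replicates.

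The edge lists of the 2 days overlapped only in part. How far lists of the same day would overlap is unknown, so the overlap does not measure a change of contacts. The 2859 vertices with a shared peak had 1042 edges on day 5 and 1069 on day 0, and 428 edges were on both lists (41.1% of the day 5 and 40.0% of the day 0 edges). For vertices with day 0-only peaks alone it was 43.4% of the day 5 and 40.7% of the day 0 edges, and for vertices with no day 0 PU.1 peak 38.3% of the day 5 and 37.3% of the day 0 edges. The median span of edges from vertices with a shared peak was 37.9 kb on day 5 and 50.2 kb on day 0. Edges touching no PU.1 peak spanned 38.7 kb on day 5 and 41.6 kb on day 0. Only 74 edges on day 5 and 80 on day 0 joined 2 vertices that both held shared peaks.

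Vertices with a shared peak were wider, with a median of 1596 bp against 1205 bp for those with day 0-only peaks and 1000 bp for those with none. Width moved with contacts. Among vertices of exactly the smallest width, 1.08% of the 928 with a shared peak had an edge on day 5 (0.586 to 1.97, 95% Wilson interval) and 0.970% on day 0. With day 0-only peaks it was 0.542% on day 5 and 0.481% on day 0, and with no peak 0.331% on day 5 and 0.259% on day 0. Of all vertices with a shared peak, 17.8% had an edge on day 5. The difference at the smallest width was not tested, since each day has 1 list of edges.

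The 3 shared peaks with the most edges were not among the strongest in PU.1. On day 0 their mean fold enrichments were 10.3, 24.8 and 12.5. Over all shared peaks the 10th percentile was 12.0 and the median 24.6, so the second of them was close to the median. The peak at chr3:95462463-95462854 had the most edges over both days, 18 on day 5 and 17 on day 0. Its fold enrichment was 8.48 and 15.7 on day 5, against 11.1 and 9.39 on day 0, so the days overlapped. DNase score there was 176 and 237 on day 5, against 325 and 280 on day 0, with 8 footprints on day 5 and 7 on day 0. This peak is also 1 of the run of 4 shared peaks at chr3:95449146-95466196. The peak at chr19:5802875-5803266 had 8 edges on day 5 and 15 on day 0, with a fold enrichment of 10.5 and 17.2 on day 5, against 27.2 and 22.3 on day 0. The one at chr19:46577816-46579066 had 13 edges on day 5 and 8 on day 0, a fold enrichment of 7.53 and 10.3 on day 5, against 11.1 and 13.9 on day 0, and 13 footprints on day 5 and 16 on day 0. Across the quintiles of PU.1 ratio, the share with an edge was 8.72% in the lowest and 23.1% in the highest on day 5, and 10.1% and 20.2% on day 0. Peaks with a higher PU.1 ratio thus had an edge more often on both days. These shares were not held at equal vertex width or DNase score, and day 0 DNase score was also higher in the highest quintile.

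Genes could not be assigned to the peaks, because no annotation of the mm9 build was at hand, so RNA is given for genes known to be bound by PU.1 or to work with it, whether or not a shared peak lies near them. Of 28 genes known as PU.1 targets in myeloid cells, 13 passed the filter on low values, 7 fell, 1 rose and 5 did not pass the threshold by limma, where 7.81% of all genes tested fell and 10.7% rose. Of the 7 that fell, Fcgr2b, Fcgr3, Tyrobp and Rnase6 passed the filter only through their day 0 values, so their fall was partly decided by it and the count is not read as a result about the list. The kinase gene Btk, needed for B cell receptor signalling, had 36.0 and 33.5 FPKM on day 5, against 138 and 135 FPKM on day 0 (log2 difference −1.94 ± 0.16, limma adjusted p = 0.00658). Coro1a, which encodes an actin-binding protein of leukocytes, had 3.32 and 5.01 FPKM on day 5, against 38.7 and 41.2 FPKM on day 0 (−3.01 ± 0.26, limma adjusted p = 0.00703). Rnase6, Fcgr2b, Fcgr3, Tyrobp and Laptm5 also fell. Plek, encoding a protein kinase C substrate of platelets and leukocytes, rose, with 348 and 338 FPKM on day 5, against 153 and 116 FPKM on day 0 (1.36 ± 0.19, limma adjusted p = 0.0173). In Btk, Coro1a and Plek the libraries of the 2 days did not overlap.

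Among 17 partners and antagonists of PU.1, 12 passed the filter, 3 rose and 3 fell by limma, against 10.7% and 7.81% of all genes tested. Tal1, an erythroid master regulator, rose by 2.44 on the log2 scale, with 140 and 120 FPKM on day 5, against 22.9 and 23.4 FPKM on day 0 (limma adjusted p = 0.00517). Gfi1b, an erythroid repressor, and Junb also rose. Myb, which keeps blood progenitors proliferating, had 1.06 and 2.51 FPKM on day 5, against 58.6 and 79.1 FPKM on day 0 (−4.68 ± 0.35, limma adjusted p = 0.00552). Lmo2 and Ikzf1 also fell. Gata1, the main opponent of PU.1, had 359 and 407 FPKM on day 5, against 279 and 209 FPKM on day 0, and did not pass (limma adjusted p = 0.076). Of 13 other ETS factors, which bind DNA related to the PU.1 motif, 10 passed the filter, 1 rose (Elk1) and none fell, which is near the 10.7% that rose and 7.81% that fell among all genes tested. The median log2 change of the 10 was −0.004, against 0.15 over all genes tested. Elk1, at 7.88 and 8.45 FPKM on day 5, against 3.49 and 3.05 FPKM on day 0 (limma adjusted p = 0.0477), was not called after quantile normalization (limma adjusted p = 0.0907). No gene of these 3 lists, no erythroid marker and not Hdc kept its call when 1 library was left out.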

How the data were processed

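The authors deposited, for each PU.1 ChIP replicate, peaks with a ratio to background (fold enrichment) beside a −log10 p, and 1 list per day merged over replicates with an IDR, which acts as a q-value and stayed under 0.05, and a score, per the file headers. The submitters' processing notes name Bowtie 1.0.0, MACS2 2.0.10 and the build mm9 for these. The deposited DNase site score (at least 2), footprint score (−20 or lower) and edge score have no definition in the sources used here, and the RNA values are FPKM computed by the authors. None of these carries read counts, so depth is unknown. No mm9 sequence or annotation was used, so no gene was tied to a peak.

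Lists were overlapped by at least 1 bp in Python 3.11.15 with pandas 2.3.3, with overlaps tested on simulated intervals. Libraries, not peaks, were the unit of tests, by exact permutation. Intervals are 95% Wilson intervals. FPKM were compared as log2(FPKM + 1), which understates changes of low genes, by limma 3.58.1 in R 4.3.3 (eBayes with trend, no replicate block, genes with at least 1 FPKM in 2 libraries, adjusted p under 0.05 over all genes). Peaks were named by rank of fold enrichment, ratio between days, edges and size of overlap. The members and gene lists were chosen with earlier results of these data known.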

Additional observations from a re-analysis of the deposited data

How the results depend on the processing

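With overlap of at least 50% of both peaks, 2322 peaks were shared, and with an IDR of 0.01 or less, 2245. The share in a DNase site was then 82.1% and 83.9% on day 5 and 92.6% on day 0 with the lower IDR. Where at least 50% of the peak had to lie inside a site, day 5 had 72.9% and day 0 had 88.7%. With 1 library alone day 5 had 82.9% to 85.2% and day 0 had 91.4% to 92.8%. Under the first 2 settings, footprints were at 54.7% and 55.5% on day 5, against 73.5% and 76.3% on day 0, and at 33.7% on day 5 and 51.1% on day 0 where footprints had to score −40 or lower. The share with an edge was 18.4% on day 5 and 17.7% on day 0 with the lower IDR, and 31.4% on day 5 and 33.6% on day 0 with 3 kb vertices. The cause of these moves was not tested.

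The lower DNase score on day 5, the lead of shared peaks and its difference between days kept their direction under every alternative run. Leaving out 1 library, they ranged from −106 to −82.4, from 12.3 to 16.7 points and from 9.67 to 12.4 points. Weighting to 20 classes of score and using peak midpoints, both chosen after seeing the data, gave leads of 7.65 and 16.7 points. Same-numbered replicates deviated together by correlations of 0.05 (PU.1), −0.05 (DNase) and 0.05 (RNA). Such values do not exclude that cultures were paired. The labels give no pairing, so replicate numbers were not treated as pairs in the main tests. With the replicate block the 3 DNase values stayed at −94.3, 14.4 and 11.0 (exact permutation test, p = 0.5, the smallest possible), 1797 genes were called, Sfpi1 had a limma adjusted p of 0.0078 and Elk1 of 0.0706.

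RNA calls numbered 237 with no filter on low values, where Sfpi1 (−4.28) had a limma adjusted p of 0.0661, and 0 to 13 with 1 library left out, with 2504 to 3440 genes at an unadjusted p under 0.05. Sfpi1 then changed by −4.70 to −3.85 (log2). The lone library of a day was assumed to vary like those of the other day. Of the called genes of the 3 lists, Btk, Tal1 and Lmo2 kept their calls without the filter and the others did not, and Elk1 had a limma adjusted p of 0.0535 with a pseudocount of 0.1. Genes at shared peaks were not run.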
